A study of Mus musculus with 26 samples.

Results

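Microtubules are hollow polymers of alpha and beta tubulin, and the 9 genes described here encode members of both families: the alpha tubulins Tuba1a, Tuba1b and Tuba1c and the beta tubulins Tubb2a, Tubb2b, Tubb3, Tubb4b, Tubb5 and Tubb6. They were chosen by name, as a family, and all 9 were found among the 20430 genes of the RNA table and among the 19941 genes of the ribosome footprint table. The cells were NIH3T3, an established line of mouse embryonic fibroblasts, measured by sequencing of polyA-selected RNA (16 libraries in 8 groups) and of ribosome footprints, the mRNA fragments that ribosomes protect (10 libraries in 5 groups). Each group had 2 replicates. RNA was measured after heat at 44 °C for 2 h, after heat at 42 °C for 8 h and in a control of the heat experiment. RNA and footprints were both measured after H2O2 (oxidative stress) for 2 h or 7 h, after KCl (osmotic stress) for 2 h or 7 h, and in a control that H2O2 and KCl shared, so that comparisons with that control are not independent of each other. The labels give no concentration of H2O2 or KCl, describe no genetic change in the line, and do not say whether replicates were separate cultures, so p-values measure the spread between these libraries, which may be technical.

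As background, alpha and beta tubulin fold with the help of prefoldin, the chaperonin and the tubulin cofactors, and assemble as a dimer that is added to microtubule ends. Cells hold the amount of free dimer in check at the level of mRNA: when free dimer rises, Ttc5 binds tubulin as it leaves the ribosome and, through Scaper, brings in the CCR4-NOT deadenylase, which leads to decay of the tubulin mRNA being translated. The isotypes differ mainly at their C-terminal tails. Tubb3 and Tubb2b are best known from neurons, Tuba1a from developing brain, and Tuba1b, Tubb5, Tubb4b and Tubb6 from most dividing cells.

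RNA libraries held from 24441877 to 45244430 expected counts and footprint libraries from 1460751 to 5168537, both footprint extremes being replicates of H2O2 for 2 h. Most of the 7 fibroblast markers were high in the RNA libraries. Vimentin ranged from 1783 to 4402 TPM, a level per transcript length that sums to the same total in each library. Col1a1 ranged from 694 to 2835, Col1a2 from 333 to 1736, Fn1 from 691 to 1719 and Col3a1 from 67.05 to 702 TPM. Pdgfrb (10.7 to 122 TPM) and Thy1 (7.6 to 64.2 TPM) were lower. Of 5 neuron markers, Snap25 was listed at 0 in every library, Rbfox3, Syt1 and Nefl did not exceed 0.15 TPM, and Map2 ranged from 5.09 to 20.8 TPM. Of the leukocyte markers, Cd3e was likewise listed at 0, Ptprc did not exceed 0.05 TPM, and Cd68 ranged from 5.32 to 44.7 TPM. Of the epithelial markers, Epcam, Krt8 and Cdh1 did not exceed 1.12, 1.12 and 0.97 TPM, and Krt18 ranged from 6.46 to 17.2 TPM. The endothelial Pecam1, Cdh5 and Kdr did not exceed 2.14, 0.09 and 2.58 TPM. Fewer cells and less RNA per cell cannot be told apart in these bulk libraries.

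The tubulin genes lie partly in clusters. On RefSeq assembly GRCm38.p6, Tuba1b (chr15:98931429-98934390), Tuba1a (chr15:98949847-98953501) and Tuba1c (chr15:99029891-99038105) form a cluster on chromosome 15, and Tubb2a (chr13:34074278-34078008) and Tubb2b (chr13:34127008-34130354) are neighbours on chromosome 13. Tubb4b lies at chr2:25222158-25224702, Tubb3 at chr8:123411553-123422015 and Tubb5 at chr17:35833920-35838301. These are spans of whole genes. Promoter sequence was in the RefSeq table for 7 of the 9 genes, all but Tubb2b and Tubb6. The 250 bases before the annotated start are shown for Tuba1a, Tuba1b and Tubb5, whose RNA fell together in 4 of the 6 comparisons with a control, and for Tubb4b, whose RNA was higher after 7 h of either H2O2 or KCl. They are written 5′ to 3′ on the strand of the gene, the minus strand for all 4. Capitals mark matches to the CCAAT box, to the GC box (letters GGGCGG) and to the TATA box (letters TATAAA) on either strand.
Tuba1a, chr15:98953502-98953751: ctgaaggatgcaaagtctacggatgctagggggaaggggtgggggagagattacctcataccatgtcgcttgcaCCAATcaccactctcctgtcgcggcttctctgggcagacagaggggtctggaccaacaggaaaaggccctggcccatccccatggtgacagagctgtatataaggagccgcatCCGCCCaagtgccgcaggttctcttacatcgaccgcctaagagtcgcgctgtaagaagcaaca
Tuba1b, chr15:98934391-98934640: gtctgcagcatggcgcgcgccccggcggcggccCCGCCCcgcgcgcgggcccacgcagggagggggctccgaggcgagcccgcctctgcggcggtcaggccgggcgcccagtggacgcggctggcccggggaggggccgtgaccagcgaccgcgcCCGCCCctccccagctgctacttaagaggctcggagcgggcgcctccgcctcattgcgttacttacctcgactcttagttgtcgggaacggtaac
Tubb5, chr17:35838302-35838551: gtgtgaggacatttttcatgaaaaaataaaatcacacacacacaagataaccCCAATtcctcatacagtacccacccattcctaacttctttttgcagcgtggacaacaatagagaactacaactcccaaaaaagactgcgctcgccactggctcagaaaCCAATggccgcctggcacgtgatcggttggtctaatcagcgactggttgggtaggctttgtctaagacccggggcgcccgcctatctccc
Tubb4b, chr2:25224703-25224952: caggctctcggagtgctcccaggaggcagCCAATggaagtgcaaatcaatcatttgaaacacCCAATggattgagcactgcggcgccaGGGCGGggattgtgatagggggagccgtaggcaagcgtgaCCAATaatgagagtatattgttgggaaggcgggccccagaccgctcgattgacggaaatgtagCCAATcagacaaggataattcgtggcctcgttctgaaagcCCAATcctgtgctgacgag

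Of these 4 windows Tubb4b held 5 copies of CCAAT, Tubb5 held 2, Tuba1a held 1 and Tuba1b held 0. GGGCGG was found in Tuba1b at 2 places and in Tuba1a and Tubb4b at 1 place each, with 0 in Tubb5. Over all 7 tubulin promoters 5 held CCAAT and 5 held GGGCGG, against 33.8% and 32.7% of 32851 promoter windows of the same length. TATAAA was present in 1 of 7, the Tubb2a window, against 12.4% of all windows. The paired heat shock unit GAANNTTC was found in 0 of 7 windows (6.69% of all windows), and TGACNNNGC, the core of the antioxidant response element, in 2 of 7, those of Tuba1a and Tuba1c (10.2%). Both strands were searched, no motif contains another, and a match is a run of letters only.

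Tuba1b was the most abundant tubulin mRNA. In the H2O2/KCl control its level was 2677 and 2729 TPM, followed by Tubb5 with 1377 and 1399 TPM and Tuba1a with 1145 and 1086 TPM. Tubb4b stood at 581 and 566 TPM, Tubb6 at 462 and 457 TPM, and Tuba1c at 265 and 226 TPM. Tubb2b (126 and 129 TPM) and Tubb2a (124 and 121 TPM) came next, close together. Tubb3 was lowest, at 14.4 and 14.6 TPM. The libraries of neighbours in this order did not overlap in this control. The heat control had the same order, from Tuba1b at 2118 and 2187 TPM down to Tubb3 at 22.0 and 21.5 TPM. Across the 16 RNA libraries Tubb3 varied most, with a highest level 10.5 times its lowest, and Tuba1b least, at 1.95 times. The plot of counts per 1000000 shows every library.

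**Figure D1:**
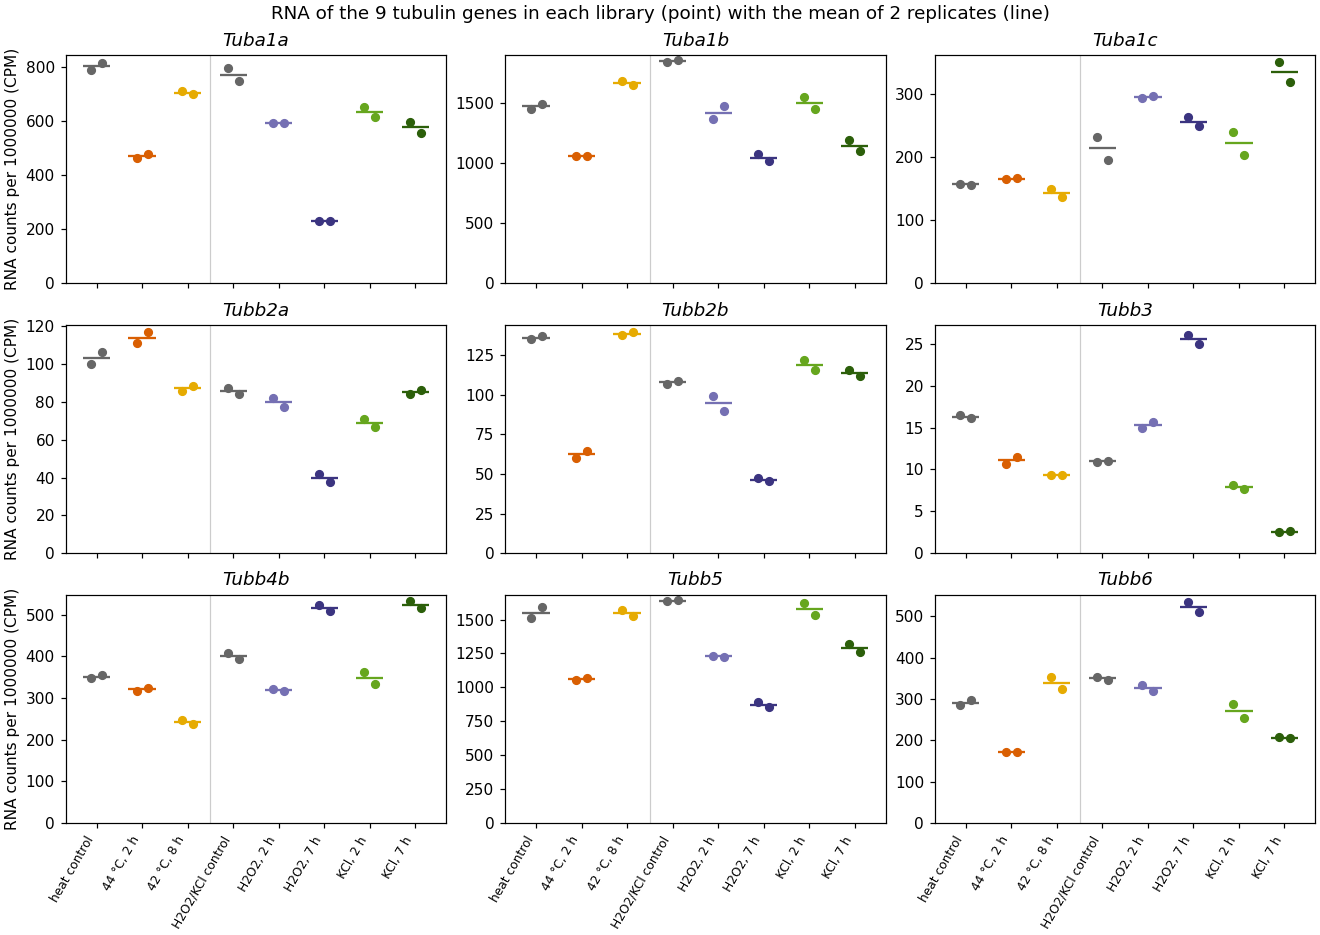
RNA of each tubulin gene in counts per 1000000 (CPM, y axis from 0, a scale of its own for each gene) in the 8 RNA groups (x axis); each point is 1 library and the line is the mean of 2 replicates. Tubb3 runs from 2.54 CPM after 7 h of KCl to 26.1 CPM after 7 h of H2O2, and Tuba1a is lowest after 7 h of H2O2, at 232 and 231 CPM.

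Heat at 44 °C for 2 h lowered most tubulin mRNAs. Of the 9 genes 7 were called lower and 1 higher by edgeR at an adjusted p under 0.05, where 35.7% of the 12747 genes tested were called lower and 35.4% higher. The median log2 fold change was -0.55 over the 9 genes and 0 over all genes tested. Fibroblast markers fell as well, 7 of 7 with a median of -0.42, their summed level going from between 9861 and 10033 to between 7131 and 7360 TPM, and their part in the tubulin values was not tested. Tubb2b fell most, from 135 and 137 CPM in the control to 60.2 and 64.4 CPM, a log2 fold change of -1.12 (SE 0.0451, edgeR adjusted p 7.75e-11). Its genomic neighbour and close relative Tubb2a went from 99.9 and 107 CPM to 111 and 117 CPM. The Tubb2a groups did not overlap, and its rise was small, at 0.14 (SE 0.0464, adjusted p 0.0136). That call was lost without replicate 2 at 44 °C (adjusted p 0.0919) or without control replicate 1 (0.180), over a range of alternatives up to 0.180. The sum of both rows, which does not depend on how reads of the pair were divided, fell by 0.44 (SE 0.0428).

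Among the alpha tubulins, Tuba1a at 44 °C went from 790 and 816 CPM to 466 and 479 CPM, a log2 change of -0.77 (SE 0.0396). Tuba1b, the main alpha tubulin, went from 1448 and 1492 CPM to 1054 and 1056 CPM, a change of -0.48. Tuba1c stood at 158 and 155 CPM in the control and at 165 and 167 CPM at 44 °C and did not pass the test (log2 0.08, adjusted p 0.116). On the TPM scale, where limma called 2 of the 9 genes higher and 6 lower, it was called higher by 0.15. The shares of all genes that limma called on that scale are not given here. The major beta tubulin Tubb5 fell by 0.55 and Tubb6 by 0.76, with heated libraries below both controls in each case. Tubb6 held 286 and 297 CPM in the control and 173 CPM in both libraries at 44 °C. Tubb3 fell by 0.56. Tubb4b changed least of the genes called lower, by -0.13 (348 and 354 against 317 and 324 CPM), and its call was lost without control replicate 2 (adjusted p 0.0581) and on the TPM scale (0.132).

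After 8 h at 42 °C tubulin genes moved in both directions. Tubb3 (log2 -0.80), Tubb4b (-0.53), Tubb2a (-0.24), Tuba1a (-0.19) and Tuba1c (-0.13) were called lower, and Tuba1b (0.18) and Tubb6 (0.22) higher, which is 5 and 2 of 9 where 31.9% and 31.7% of all genes tested were called lower and higher. Tubb4b went from 348 and 354 CPM to 248 and 238 CPM, and Tubb3 from 16.5 and 16.1 CPM to 9.38 and 9.34 CPM. In neither gene did the groups overlap. The Tuba1c call was lost without 42 °C replicate 2 or either control library (adjusted p 0.272, 0.131 and 0.0547). With near-identical rows summed, the alpha sum changed by 0.05 (adjusted p 0.305) and the sum of Tubb2a and Tubb2b by -0.08 (0.102), so that the calls of Tuba1a, Tuba1b, Tuba1c and Tubb2a were lost and those of Tubb3, Tubb4b and Tubb6 were left. Tubb5 (1511 and 1591 CPM in the control, 1567 and 1528 CPM at 42 °C) overlapped its control and was not called, and Tubb2b changed by 0.03 and was not called either. The median log2 change was -0.13 over the 9 genes and -0.01 over all genes. On the scale of TPM the median of all genes shifted by -0.18 in this comparison, so that Tuba1b changed by -0.01 and Tubb6 by 0.03 there and neither was called. On that scale limma called 7 of the 9 genes lower and 0 higher, Tubb5 (-0.19) and Tubb2b (-0.16) now among the lower ones. Both of these changes were near the shift of all genes, and the shares of all genes that limma called are not given here.

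Compared directly, 42 °C for 8 h was above 44 °C for 2 h in 5 tubulin genes and below it in 4, where 37.9% and 37.2% of all genes tested were called higher and lower. Tubb2b (1.15), Tubb6 (0.97), Tuba1b (0.66), Tuba1a (0.58) and Tubb5 (0.54) were higher at 42 °C, and Tubb4b (-0.40), Tubb2a (-0.39), Tubb3 (-0.24) and Tuba1c (-0.22) lower. The Tubb3 call was lost without 44 °C replicate 2, without either library at 42 °C, and in DESeq2 (adjusted p 0.0996, 0.0582, 0.0542 and 0.0979). On the TPM scale, where the median of all genes was -0.21, the split was also 5 and 4, again with no share of all genes given. Summed, the 3 alpha rows were higher at 42 °C by 0.57 and Tubb2a with Tubb2b by 0.36, opposite to the single rows of Tuba1c and Tubb2a. These 2 treatments differ in both temperature and duration, which cannot be told apart here.

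**Figure D2:**
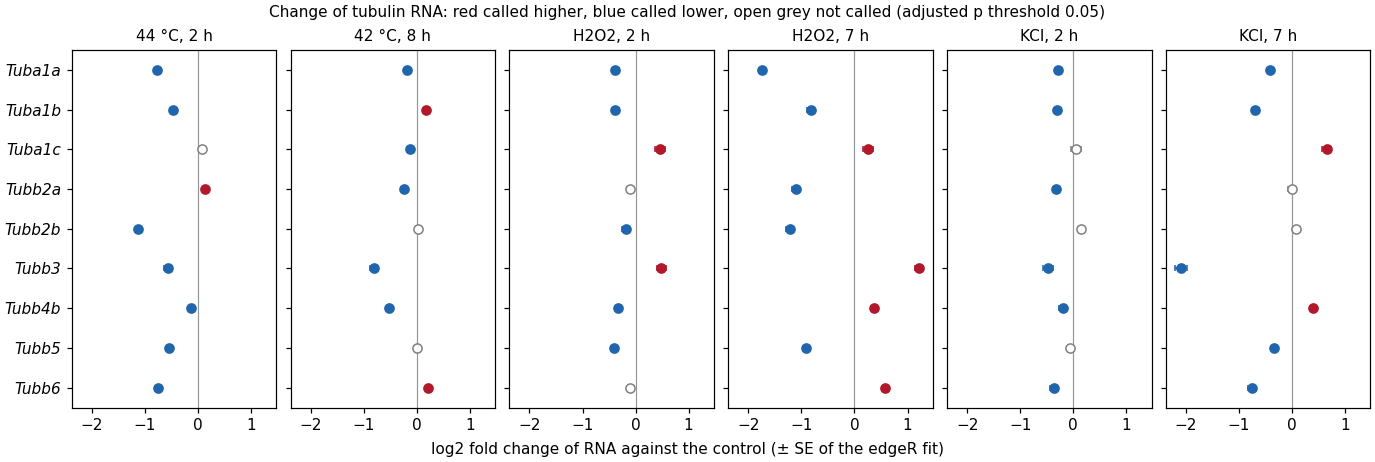
Log2 fold change of RNA against the control of the same experiment (x axis) for each tubulin gene (y axis), 1 panel per treatment, with bars of 1 SE of the edgeR fit. Tuba1a and Tubb5 fall by 1.74 and 0.91 after 7 h of H2O2 while Tubb3 rises by 1.22, and Tubb3 falls by 2.09 after 7 h of KCl.

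H2O2 for 2 h lowered the abundant tubulins and raised Tubb3, and Tuba1c where its row was counted by itself. In all, 5 of 9 genes were called lower and 2 higher, against 26.5% and 27.3% of the 13256 genes tested. The changes called lower were similar in size for Tubb5 (log2 -0.42, SE 0.0574), Tuba1b (-0.38, SE 0.0655), Tuba1a (-0.38) and Tubb4b (-0.33), with a smaller one for Tubb2b (-0.19). Tubb5 went from 1635 and 1644 CPM to 1232 and 1226 CPM, and Tuba1b from 1838 and 1855 CPM to 1364 and 1469 CPM. Both groups lay wholly below the control. Tubb3 rose from 10.9 and 11.0 CPM to 15.0 and 15.7 CPM, and Tuba1c from 232 and 196 CPM to 293 and 296 CPM. Tubb2a (-0.11) and Tubb6 (-0.10) did not pass the test. The Tubb2b call was lost without H2O2 replicate 2 or either control library (adjusted p from 0.0505 to 0.214). It was also lost in the sum with Tubb2a (-0.15, adjusted p 0.0516), and the sum of the 3 alpha rows fell by 0.30 (adjusted p 0.00136), against the direction of Tuba1c.

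H2O2 for 7 h gave the widest divergence within the family. All 9 genes were called, 5 lower and 4 higher, where 31.1% and 39.4% of all genes tested were called lower and higher. The median log2 change was -0.82 over the 9 genes and 0.08 over all genes. Cell markers moved in this group too. Fibroblast markers fell in 7 of 7 cases with a median of -1.45, and their summed level was 3615 and 3640 TPM against 7835 and 8045 TPM in the control. Of the 3 leukocyte markers 1 could be tested, Cd68, which rose by 2.17. The summed level of these 3 was 42.7 and 44.7 TPM against 9.59 and 9.98 TPM, with Cd3e listed at 0. Markers moved in other groups as well. Cd68 rose by 1.505 after 2 h of H2O2. After 2 h of KCl 4 of 7 fibroblast markers rose and 0 fell, where 27.2% of all genes were called higher. The part of these shifts in the tubulin values was not tested. Tuba1a fell most, from 797 and 748 CPM in the control to 232 and 231 CPM, a log2 change of -1.74 (SE 0.0624, edgeR adjusted p 8.70e-12). Tubb2b fell by 1.22 and Tubb2a by 1.11, and the major isotypes Tubb5 (1635 and 1644 to 893 and 853 CPM) and Tuba1b (1838 and 1855 to 1076 and 1014 CPM) fell by 0.91 and 0.82. In the other direction, Tubb3 rose from 10.9 and 11.0 CPM to 26.1 and 25.0 CPM (log2 1.22, SE 0.0781). Tubb6 rose from 355 and 347 CPM to 535 and 511 CPM (0.58), and Tubb4b from 407 and 392 CPM to 523 and 509 CPM (0.37). Every one of these groups was separate from its control, and the share of all genes separated in this way is not given here. The rise of Tuba1c (0.26, adjusted p 0.0177) was lost without H2O2 replicate 1, without control replicate 2 and on the TPM scale (adjusted p 0.320, 0.226 and 0.0759), and the sum of the 3 alpha rows fell by 0.89 (SE 0.0643).

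The major beta isotypes were at close levels after 7 h of H2O2. Tubb5, Tubb4b and Tubb6 stood at 715 and 683, 711 and 691, and 663 and 633 TPM, whereas in the control Tubb5 was at 1377 and 1399 TPM. The ranges of Tubb5 and Tubb4b overlapped. From 2 h to 7 h of H2O2, 5 of 9 genes fell and 3 rose (36.1% and 37.3% of all genes tested): Tuba1a fell by 1.36, Tubb2b by 1.03, Tubb2a by 1.00, Tubb5 by 0.49 and Tuba1b by 0.44, and Tubb3, Tubb4b and Tubb6 rose by 0.74, 0.69 and 0.68. Tubb4b thus moved from below its control at 2 h to above it at 7 h.

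KCl for 2 h lowered 6 of the 9 genes and raised 0 in the edgeR test, against 27.0% lower and 27.2% higher of all genes tested. At an unadjusted p under 0.05 edgeR gave 7 genes, the added one being Tubb2b, which was higher (log2 0.14). Counting both directions, DESeq2 called 6 genes and limma on TPM 7, which need not be the same genes. No share of all genes is given for these counts. The drops were modest: Tubb3 (-0.48), Tubb6 (-0.37), Tubb2a (-0.32), Tuba1b (-0.30), Tuba1a (-0.28) and Tubb4b (-0.20). Tubb6 went from 355 and 347 CPM to 288 and 255 CPM, and Tuba1b from 1838 and 1855 CPM to 1546 and 1449 CPM. Tubb5, at 1620 and 1536 CPM, changed by -0.06 and was not called (adjusted p 0.442). The Tubb2a call was lost in the sum with Tubb2b (-0.05, adjusted p 0.572). The Tubb4b call was lost without KCl replicate 2 or control replicate 1 and in the fit on these 2 groups alone (adjusted p 0.0937, 0.0721 and 0.0525), the range over its alternatives reaching 0.0937.

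KCl for 7 h lowered Tubb3 more than any other tubulin gene in any comparison with a control. It fell from 10.9 and 11.0 CPM to 2.54 and 2.60 CPM, a log2 change of -2.09 (SE 0.109, edgeR adjusted p 1.34e-09). Tubb6 fell by 0.77 (355 and 347 to 208 and 205 CPM), Tuba1b by 0.69 (1838 and 1855 to 1189 and 1096 CPM), Tuba1a by 0.42 and Tubb5 by 0.35. Tuba1c rose from 232 and 196 CPM to 351 and 319 CPM (0.65, SE 0.0885), and Tubb4b from 407 and 392 CPM to 533 and 515 CPM (0.39). This made 5 genes lower and 2 higher, against 31.6% and 37.2% of all genes tested, with a median of -0.35 over the 9 genes and 0.04 over all genes. Tubb2a (-0.01) and Tubb2b (0.08) were not called. The treated libraries of the genes called did not overlap the control, and neither did those of Tubb2b. The share of all genes separated in this way is not given here. The sum of the 3 alpha rows fell by 0.46 (SE 0.0639). From 2 h to 7 h of KCl, 3 genes rose and 4 fell (35.1% and 33.7% of all genes), with Tuba1c up by 0.60, Tubb4b by 0.59 and Tubb2a by 0.31, and Tubb3 down by 1.62, Tubb6 by 0.40, Tuba1b by 0.39 and Tubb5 by 0.29. Summed, the 3 alpha rows fell by 0.20 (adjusted p 0.0141), against the direction of Tuba1c, and Tubb2a with Tubb2b changed by 0.08 (0.251).

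H2O2 and KCl were also compared with each other. At 2 h, Tubb3 was higher in H2O2 by 0.96, Tuba1c by 0.41, Tubb6 by 0.27 and Tubb2a by 0.21, and Tubb5 (-0.36) and Tubb2b (-0.33) were lower. The Tubb2a call was lost without H2O2 replicate 1 or KCl replicate 2 (adjusted p 0.154 and 0.0997). With near-identical rows summed the calls of Tuba1c (-0.03, adjusted p 0.718) and of Tubb2a and Tubb2b (-0.11, 0.169) were lost. This is 4 higher and 2 lower, where 27.0% and 24.2% of all genes were called. At 7 h, 2 genes were higher in H2O2 and 5 lower (41.0% and 37.4% of all genes). Tubb3 differed most, at 26.1 and 25.0 CPM in H2O2 and 2.54 and 2.60 CPM in KCl, a log2 difference of 3.31 (SE 0.103, edgeR adjusted p 1.64e-12), followed by Tubb6 with 1.34. Tuba1a (-1.32), Tubb2b (-1.29), Tubb2a (-1.10), Tubb5 (-0.56) and Tuba1c (-0.39) were lower in H2O2. Tubb4b, raised by both agents, differed by -0.02 between them and its groups overlapped.

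These changes altered the make-up of tubulin mRNA. The 9 genes together summed to 6749 ± 31.1 TPM (SD, n = 2) in the H2O2/KCl control, to 4220 ± 136 TPM after 7 h of H2O2 and to 4908 ± 135 TPM after 7 h of KCl. In the heat experiment the sum was 6034 ± 149 TPM in the control, 4461 ± 36.8 TPM at 44 °C and 5299 ± 43.8 TPM at 42 °C. Alpha tubulin mRNA fell further than beta tubulin mRNA after 7 h of H2O2, and not after 2 h: the summed alpha TPM was 1.51 ± 0.0141 times the summed beta TPM in the control, 1.51 ± 0.0778 times at 2 h and 0.931 ± 0.00636 times at 7 h, with 1.22 ± 0.0424 after 7 h of KCl. The summed beta TPM was 2686 ± 2.12 in the control, 2186 ± 63.6 after 7 h of H2O2 and 2212 ± 21.2 after 7 h of KCl. Sums and ratios were described over 2 libraries a group and not tested.

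**Figure D3:**
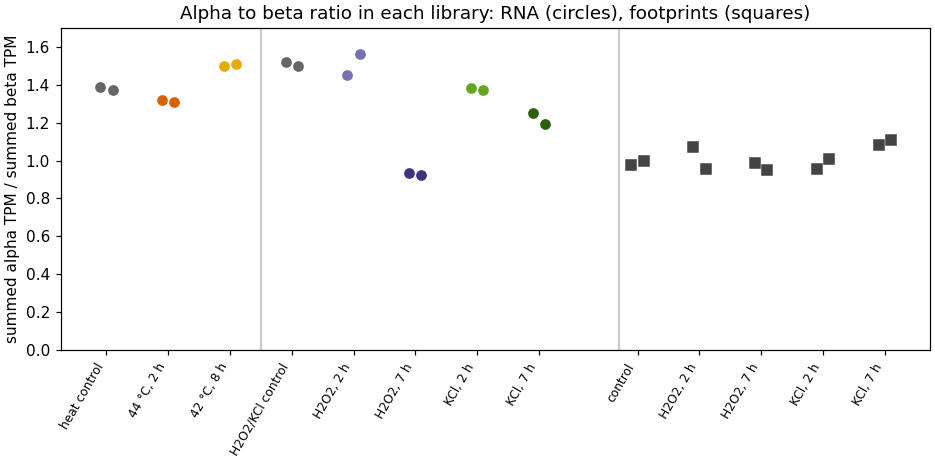
Summed TPM of the 3 alpha tubulin genes divided by the summed TPM of the 6 beta tubulin genes (y axis, from 0) in each library, by group (x axis); circles are RNA and squares are footprint libraries. RNA ratios run from 0.926 after 7 h of H2O2 to 1.56 after 2 h of H2O2, and footprint ratios from 0.948 to 1.11.

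In footprints the family looked different from RNA. The summed footprint TPM of alpha tubulin was close to that of beta tubulin in all 5 groups, with ratios from 0.948 to 1.11 over the 10 libraries, against 0.926 to 1.56 in the 10 RNA libraries of the same experiment. Tuba1c, with 245 TPM of RNA (the mean of the control), had 1749 TPM of footprints, so that its footprint to RNA ratio was 7.13, above 99.7% of the 8483 genes with at least 10 TPM of control RNA, whose median ratio was 0.625. Tuba1b had a ratio of 0.601, at percentile 47.7, and Tuba1a 0.833. The 3 alpha coding sequences are nearly the same, and the summed alpha ratio was 1.06 (percentile 80.0). That ratio depends less on how reads were divided among the 3 copies. It is not free of it, because TPM divides the reads of each gene by its own length. How reads were shared among these copies was not tested, and the value of a single alpha gene in footprints is uncertain for that reason. Among beta tubulins the ratio was highest for Tubb5 (1.91, percentile 95.1) and Tubb4b (1.54), then Tubb2b (1.37), Tubb6 (1.12), Tubb2a (1.02) and Tubb3 (0.802). The 9 genes together had 8664 TPM of footprints and 6749 TPM of RNA in the control, a ratio of 1.28 (percentile 87.4). This ratio was 1.58 and 1.63 after 2 h and 7 h of H2O2 and 1.81 and 2.06 after 2 h and 7 h of KCl. In the same order its percentiles were 91.9, 90.1, 94.4 and 95.4, and the median ratios of the ranked genes 0.62, 0.727, 0.675 and 0.666. After 2 h of H2O2 the summed footprints were 10230 and 6955 TPM, on either side of the controls (7921 and 9408 TPM). These ratios were not tested.

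**Figure D4:**
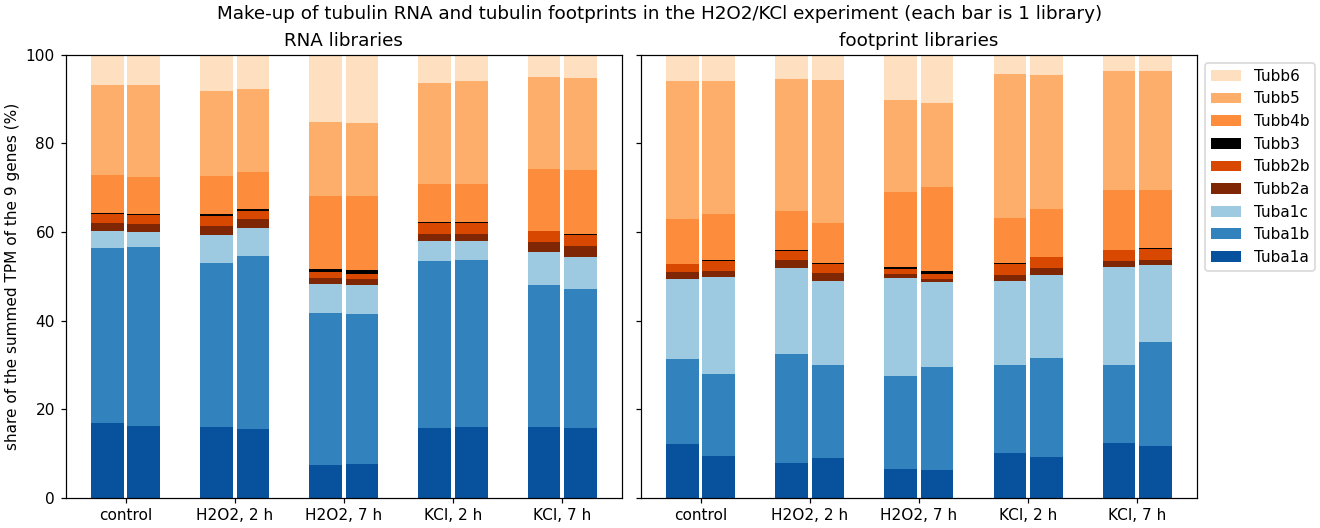
Share of each gene in the summed TPM of the 9 tubulin genes (y axis, percent, stacked to 100) for the RNA (left) and footprint libraries (right) of the H2O2/KCl experiment, 1 bar per library. Tuba1c takes 18.8% to 20.8% of the tubulin footprints as a group mean, and Tubb5 drops from 30.6% of footprints in the control to 19.9% after 7 h of H2O2.

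After 7 h of H2O2 the footprints of 5 tubulin genes changed, a comparison in which Tubb3 rose and Tuba1a, Tubb2a, Tubb2b and Tubb5 fell, which is 1 and 4 of 9 genes where 17.2% and 10.6% of the 10545 genes tested were called higher and lower. Tubb3 footprints went from 12.7 and 19.0 CPM to 49.8 and 66.2 CPM (log2 1.88, SE 0.288, edgeR adjusted p 0.000370). Tubb5 footprints went from 3206 and 3884 CPM to 1677 and 1681 CPM (-1.08, SE 0.200), and Tuba1a from 1274 and 1247 CPM to 526 and 563 CPM (-1.21, SE 0.185). These groups were separate, and each of the 5 genes had been called in the same direction in RNA. Tubb2a fell by 1.25 and Tubb2b by 1.45, and the sum of both rows by 1.36 (SE 0.227). For the sum of the 3 alpha rows the change was -0.47 (SE 0.229) and was not called (adjusted p 0.150, the highest over the alternatives for Tuba1a).

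In the other footprint comparisons edgeR called 0 of the 9 genes. The shares of all genes in brackets or clauses below are edgeR calls at an adjusted p under 0.05. They are not a background for counts at an unadjusted p, for which no share of all genes is given. After 2 h of H2O2, where 1.14% of genes were called higher and 0.768% lower, 1 tubulin gene had an unadjusted p under 0.05 and DESeq2 and limma called 0. After 2 h of KCl (1.79% higher, 5.06% lower), 0 had an unadjusted p under 0.05 and both other tools called 0. After 7 h of KCl (10.5% higher, 9.83% lower) 3 had an unadjusted p under 0.05, limma called 0 and DESeq2 called 1. That gene was Tubb4b, higher by 0.65 in DESeq2 (adjusted p 0.0361), which was also called without a filter on low counts and in the fit of these 2 groups alone. Its footprints were at 1040 and 1337 CPM in the control and 1875 and 1816 CPM after 7 h of KCl. Standard errors of the footprint fits were from 0.182 to 0.327 for the 9 genes, against 0.0574 to 0.119 in the RNA fits of the same experiment, so that changes as small as many of those in RNA lay within the error of the footprint fits. Tubb3 had from 29 to 230 footprint counts in a library, and Tubb5 from 5836 to 16186.

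**Figure D5:**
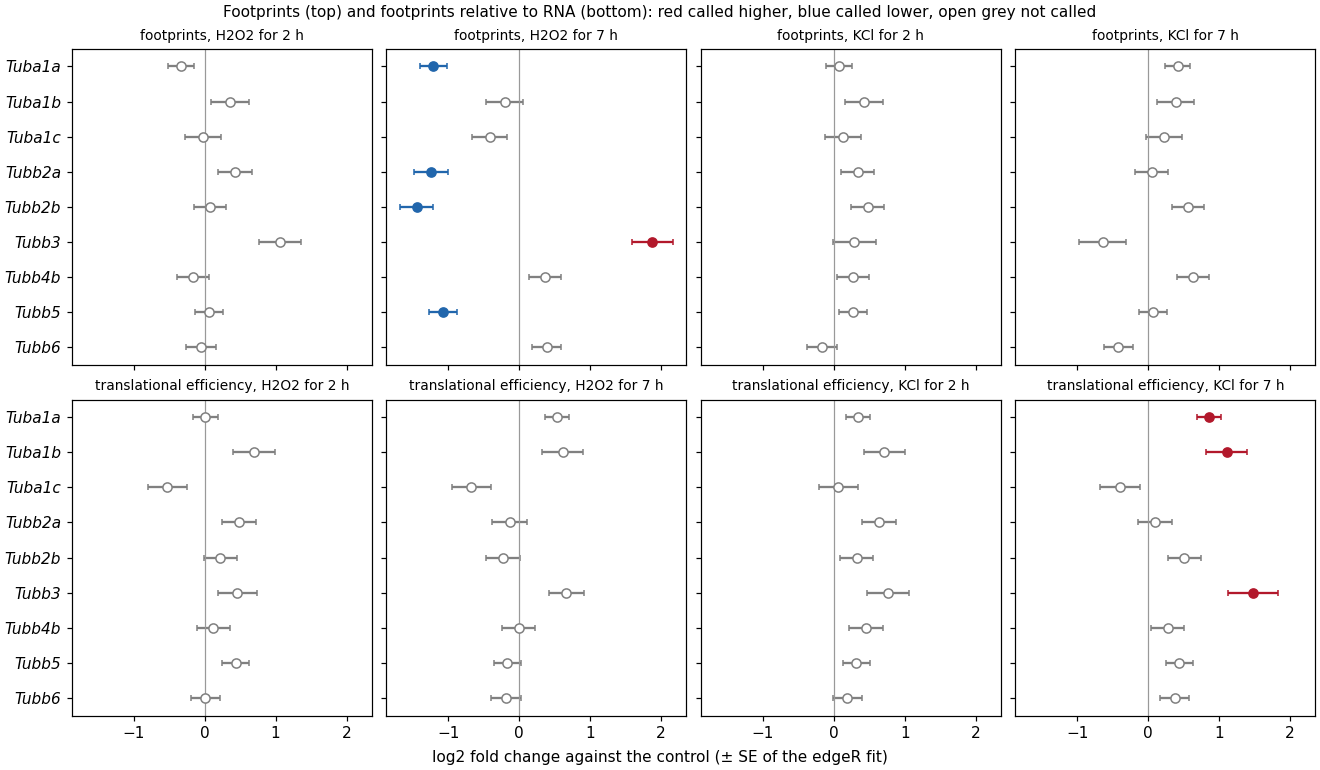
Log2 fold change against the control (x axis, bars of 1 SE of the edgeR fit) of footprints (top) and of translational efficiency (bottom) for each tubulin gene (y axis), 1 column per treatment. Footprints of Tubb5 and Tuba1a fall by 1.08 and 1.21 after 7 h of H2O2, and translational efficiency is called higher for Tuba1a, Tuba1b and Tubb3 after 7 h of KCl.

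Translational efficiency, the change of footprints relative to the change of RNA, was called higher for 3 of 9 genes after 7 h of KCl and lower for 0, where 1.69% and 3.88% of the 10480 genes tested were called higher and lower. The genes were Tuba1a (log2 0.86, SE 0.170, edgeR adjusted p 0.00676), Tuba1b (1.11, SE 0.291, adjusted p 0.0349) and Tubb3 (1.48, SE 0.355, adjusted p 0.0219). In each of them RNA had fallen: Tuba1b RNA was at 1189 and 1096 CPM against 1838 and 1855 CPM in the control, while its footprints were at 2497 and 3265 CPM against 2005 and 2413 CPM. Tubb3 footprints were few, at 10.9 and 9.36 CPM against 12.7 and 19.0 CPM. Leaving out 1 of the 8 libraries compared removed the Tuba1b call in 6 fits and the Tubb3 call in 7, and their adjusted p ranged up to 0.142 and 0.0833. Tuba1a was called in each fit of its own row. With the 3 alpha rows summed the change was 0.82 (SE 0.243, adjusted p 0.0577) and was not called. The median was 0.44 over the 9 genes and 0.01 over all genes.

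For the other treatments edgeR called 0 of 9 genes in translational efficiency. Here too the shares of all genes are edgeR calls at an adjusted p under 0.05 and are not a background for counts at an unadjusted p. After 2 h of H2O2 (3.98% of genes higher, 7.46% lower) 2 tubulin genes had an unadjusted p under 0.05, and DESeq2, limma on TPM and limma voom with a weight for each kind of library called 0. The shallowest and the deepest footprint library are the replicates of this group. Without the deeper of them, replicate 2, the group held 1 footprint library, of 1460751 counts. In that fit log2 changes were 1.025 for Tuba1b, 0.80 for Tubb2a, 0.91 for Tubb3 and 0.63 for Tubb5. Values of the other members and the share of all genes are not given for that fit. After 2 h of KCl (3.58% higher, 9.18% lower) 3 had an unadjusted p under 0.05 and these tools called 0. After 7 h of H2O2 (4.69% higher, 4.57% lower) 4 had an unadjusted p under 0.05, and DESeq2, limma on TPM and limma voom each called 1, Tuba1a, at log2 changes of 0.54, 0.72 and 0.53 (adjusted p 0.00541, 0.0181 and 0.0324; edgeR 0.0601).

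The rest of the tubulin pathway was described from lists of genes chosen by function, whose counts are to be read against the share of all genes called. In heat at 44 °C, where 35.7% of all genes were called lower and 35.4% higher, 9 of 13 tubulin folding genes fell and 2 rose, with a median log2 change of -0.33. The cofactor Tbcd, which helps join the dimer, fell by 1.10 (SE 0.0535), its regulator Arl2 by 0.93, and the prefoldin subunits Pfdn4 and Pfdn1 by 0.53 and 0.44. Of 15 genes for tubulin modification, 10 fell and 1 rose (median -0.29). The gene that rose was Atat1, the alpha tubulin acetyltransferase (0.56, SE 0.0774), and Ttl, which puts back the terminal tyrosine, fell by 0.53. Of 24 genes for microtubule binding and dynamics 11 fell and 3 rose (median -0.08), among them Stmn2 (-1.21), Map1a (-0.73) and Map4 (-0.71). Of the other tubulins 5 of 7 rose and 2 fell (median 0.45), with Tuba8 up by 0.71 and Tuba4a by 0.49. After 42 °C (31.7% of all genes higher, 31.9% lower) 5 of 13 folding genes were higher and 3 lower, near the share of all genes, with Tbcc down by 1.06 and Pfdn4 up by 0.55. The counts were 3 higher and 6 lower for modification and 10 higher and 4 lower for binding, where the depolymerizing kinesin Kif2c fell by 0.62.

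After 7 h of H2O2 (39.4% of all genes higher, 31.1% lower), 15 of 25 binding and dynamics genes fell and 5 rose, with a median of -0.34 against 0.08 over all genes. Kif2c fell by 2.18 (SE 0.0862), Map1a by 1.77 and Map2 by 0.84, and Mapre3, a plus end binding protein, rose by 0.94. Of 15 modification genes 7 fell and 3 rose. The polyglutamylase subunit Ttll1 rose by 2.48 (SE 0.0815), and its footprints rose by 2.97 (SE 0.225). Ttll7 fell by 1.19 in RNA and 1.47 in footprints. Of 13 folding genes 5 rose and 4 fell, about the share of all genes, among them Tbcel (0.98) and Arl2 (-0.68). The counts after 2 h of H2O2 (27.3% of all genes higher, 26.5% lower) were 2 higher and 12 lower of 25 for binding, 1 and 8 of 15 for modification and 2 and 5 of 13 for folding.

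After 7 h of KCl (37.2% of all genes higher, 31.6% lower), 8 of 13 folding genes fell and 4 rose (median -0.44), with Arl2 down by 1.16 and Tbcb by 0.85 and Tbcel up by 1.26 (SE 0.0600). Of the modification genes 8 of 15 fell and 3 rose (median -0.51), including Agbl5 (-1.15), Ttl (-0.80) and Ttll7 (1.08). Of 25 binding genes 6 rose and 7 fell. After 2 h of KCl (27.2% of all genes higher, 27.0% lower) the counts were 1 higher and 4 lower of 13 for folding, the latter near the share of all genes, 1 and 9 of 15 for modification, and 10 and 7 of 25 for binding, with Kif2a up by 0.65.

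The genes of tubulin mRNA autoregulation did not move as a block. Scaper, the adaptor between Ttc5 and the deadenylase, fell by 0.79 (SE 0.0681) at 44 °C and by 1.98 (SE 0.125) after 7 h of KCl, and rose by 0.47 (SE 0.0992) after 2 h of KCl. Ttc5, which reads nascent tubulin, fell by 0.54 (SE 0.0661) at 42 °C and by 0.55 (SE 0.0805) after 2 h of H2O2. Of the 12 genes tested in this list, 4 rose and 5 fell at 44 °C and 3 and 4 at 42 °C, near the 35.4% and 35.7%, and 31.7% and 31.9%, of all genes called higher and lower. The counts were 1 and 4 after 2 h of H2O2 (27.3% and 26.5% of all genes) and 3 and 7 after 7 h of H2O2 (39.4% and 31.1%). After KCl 3 rose and 8 fell at 2 h (27.2% and 27.0% of all genes), and 5 rose and 3 fell at 7 h (37.2% and 31.6%). The CCR4-NOT scaffold Cnot1 rose by 0.84 and Cnot3 by 1.04 after 7 h of KCl, and in footprints by 0.64 and 0.97.

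The members were not alike over the 16 RNA libraries. On log2 CPM relative to the control of the experiment, Pearson's r of a gene with the mean of the other 8 was highest for Tuba1b (0.63) and Tubb5 (0.61), then Tuba1a (0.45) and Tubb2b (0.40). It was near 0 for Tubb6 (0.08) and Tubb2a (0.03), and negative for Tubb3 (-0.38), Tuba1c (-0.45) and Tubb4b (-0.50). Of 6150 other genes with a mean log2 CPM of at least 5, those most like the mean of the 9 tubulin genes were Arhgdib (r = 0.96), Cyb5r3 (0.95), Galk1 (0.94), Gorasp2 (0.93) and Aldh16a1 (0.93). These correlations describe 16 libraries that share controls and replicates, and carry no test.

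The study asked, by its title, about transcription that runs past the end of a gene into its neighbour under stress. The authors' deposited table marks DoGs (transcripts downstream of genes) for 6399 pairs of neighbours, of which 10 hold a tubulin gene, in 8 as the upstream and in 4 as the downstream gene, the pair of Tuba1a and Tuba1b and that of Tubb2b and Tubb2a counting for both. The deposited read-in calls were false for all 10 pairs in all 16 libraries. The share of all pairs with a read-in call is not given here, so this count has no background. DoG calls were made for between 0 and 7 of the 10 pairs in a library, the 7 in replicate 2 of KCl for 2 h, where 34.7% of all pairs had one. Replicate 1 of that group had 3, where 31.9% of all pairs had one. Each library at 44 °C had 1, where 32.7% of all pairs had one. Across libraries the share was between 19.4% and 35.7% of all pairs. The most frequent were Tuba1b towards Lmbr1l in 7 of 16 libraries and Tubb2b towards Tubb2a in 6. How often single pairs outside the family were called is not given here.

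Tubb3 lies downstream of Mc1r, the melanocortin receptor gene. A DoG of Mc1r was called in both libraries of H2O2 for 2 h and in replicate 2 of KCl for 2 h. The deposited read-in estimate for this pair, a ratio with no stated formula, was 0.120 and 0.0711 after 2 h of H2O2 and 0.0212 and 0.0328 after 2 h of KCl. It was 0 in both control libraries, 0.00244 and 0 after 7 h of H2O2 and 0 in both libraries after 7 h of KCl. At the same time points Tubb3 RNA was higher after 2 h of H2O2, lower after 2 h of KCl, and highest after 7 h of H2O2, where the estimate was low. What read-in contributes to the polyA RNA of Tubb3 was not tested. For Tubb2b towards Tubb2a the estimate did not exceed 0.00191 in any library and was 0 in both libraries at 44 °C, where Tubb2a rose and Tubb2b fell. For Tuba1b towards Lmbr1l it was 0.150 and 0.166 after 42 °C for 8 h and 0 in both heat controls.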

How the data were processed

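Expected counts per gene, which the authors deposited, were rounded to whole numbers for the tests. The authors also deposited TPM values, and a read-in ratio and true or false DoG calls per pair of genes. The submitters' processing notes name STAR, RSEM, Bowtie and the build mm10, with no roles or versions. Differential expression used edgeR 4.0.16 (R 4.3.3): quasi-likelihood test, TMM, filterByExpr, Benjamini-Hochberg adjustment over all genes tested, threshold 0.05. The groups of an experiment shared an estimate of the spread. Translational efficiency was an interaction term over 20 RNA and footprint libraries, each kind normalized by itself. CPM are TMM-scaled counts per 1000000. Alternatives were DESeq2 1.42.0, no filter, limma 3.58.1 on log2(TPM + 1), limma voom with a weight per kind of library, a replicate block, fits of the groups compared alone, each library left out, and the rows of near-identical copies (Tuba1a, Tuba1b and Tuba1c; Tubb2a and Tubb2b) summed. RSEM divides ambiguous reads by estimate, so single members of those rows are uncertain. The fits were tested on simulated data. All 9 members were named. From each list up to 4 called genes per comparison were taken as examples, by size of change, at a mean log2 CPM of at least 3. Members and lists were chosen with earlier results of these data known. A further 12 footprint columns bear names of no labelled library and were left out. Gene positions and promoters are RefSeq's, on GRCm38.p6. All 9 symbols matched its gene table and 7 its promoter table, and positions are given for 8.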

Additional observations from a re-analysis of the deposited data

Results flagged for a closer look

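In 8 of the 9 tubulin genes the RNA change against the shared control differed between 2 h and 7 h of H2O2 in edgeR's direct comparison of the 2 times. That count is to be read against the 37.3% of all genes tested called higher and 36.1% called lower. The log2 differences (7 h minus 2 h) were -1.36 for Tuba1a, -0.44 for Tuba1b, -1.002 for Tubb2a, -1.03 for Tubb2b and -0.49 for Tubb5, and 0.74 for Tubb3, 0.69 for Tubb4b and 0.68 for Tubb6. After KCl 7 genes differed between the times, where 35.1% of all genes tested were called higher and 33.7% lower. The differences were -0.39 for Tuba1b, 0.60 for Tuba1c, 0.31 for Tubb2a, -1.62 for Tubb3, 0.59 for Tubb4b, -0.29 for Tubb5 and -0.40 for Tubb6. Tubb4b stood below the control at 2 h and above it at 7 h in both treatments. Groups of 2 libraries are too small for a check of outlying samples.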

How the results depend on the processing

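Recomputed counts of tubulin genes called stayed within 1.5 times the reported count in 173 cases and not in 18. The latter concern footprints and translational efficiency. Counting limits precision for Tubb3 footprints, of which the library with the fewest held 29. For footprints after 7 h of KCl the count of 0 became 1 with DESeq2, without a filter and in the fit of the groups compared alone. For translational efficiency after 7 h of H2O2 the count of 0 became 1 with DESeq2, limma on TPM, voom weights and the groups compared alone. After 2 h of H2O2 the count of 0 became 1 without a filter. With each library left out in turn these counts ranged from 0 to 4 after 2 h of H2O2 (4 without footprint replicate 2 of that group), from 0 to 1 after 7 h of H2O2 and after 2 h of KCl, and from 1 to 4 after 7 h of KCl. The cause was not tested.

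Signs of single log2 changes turned mostly where near-identical rows were summed, which gives a group of genes 1 value in place of each gene's own. For the 3 alpha rows, where Tuba1c alone was positive, the sum was -0.52 at 44 °C, -0.30 after 2 h and -0.89 after 7 h of H2O2, -0.27 after 2 h and -0.46 after 7 h of KCl, -0.20 for KCl 7 h against 2 h and -0.03 for H2O2 against KCl at 2 h. It was 0.048 at 42 °C against the control (Tuba1a and Tuba1c were negative) and 0.57 for 42 °C against 44 °C (Tuba1c was negative). The sum of Tubb2a and Tubb2b was -0.44 at 44 °C, -0.083 at 42 °C, 0.36 for 42 °C against 44 °C, -0.045 after 2 h and 0.039 after 7 h of KCl, 0.083 for KCl 7 h against 2 h and -0.11 for H2O2 against KCl at 2 h, each opposite in sign to 1 of the pair.

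On the TPM scale Tuba1b (-0.007) and Tubb2b (-0.16) turned at 42 °C, Tuba1c after 2 h of KCl (-0.044), Tubb2b after 7 h of KCl (-0.024), and Tuba1a (0.001) and Tuba1b (0.018) between H2O2 and KCl at 2 h. With DESeq2 Tubb5 was 0.006 at 42 °C. With a library left out, Tubb5 at 42 °C ranged from -0.034 to 0.035, Tubb4b between H2O2 and KCl at 7 h from -0.056 to 0.002, Tuba1c after 2 h of KCl from -0.072 to 0.18, and Tubb2a after 7 h of KCl from -0.039 to 0.015. Of these genes only Tuba1b at 42 °C had been called. Without single libraries the calls of Tuba1c at 42 °C, and of Tubb3 for 42 °C against 44 °C, were lost in 3 fits each.

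Replicate numbers were shared across groups. Same-numbered libraries correlated over 0.1 in their deviations in 1 of 3 pairs of heat groups, 0 of 10 pairs of H2O2/KCl RNA groups and 6 of 10 pairs of footprint groups. This does not settle whether the numbers mark pairs. They were not taken as pairs because no label says that they mark a shared culture or day. The replicate block changed no count beyond 1.5 times (6 to 7 tubulin genes after 2 h of KCl) and added the calls of Tubb2b after 2 h of KCl (0.14), Tuba1c for H2O2 7 h against 2 h (-0.21) and Tuba1a for KCl 7 h against 2 h (-0.14).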

Other observations

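Tubulins outside the 9 genes also moved in these cells. RNA of Tuba8, a less common alpha tubulin, fell by 0.81 (SE 0.0939) after 2 h of H2O2 and was higher by 0.72 (SE 0.0864) after 7 h, when its footprints were higher by 1.73 (SE 0.292) and its translational efficiency by 1.01 (SE 0.256). Tuba4a fell by 1.00 (SE 0.0610) after 7 h of H2O2 and rose by 0.51 (SE 0.0586) after 7 h of KCl, and its footprints changed by -0.85 and 0.81. Tubg1, the gamma tubulin that nucleates microtubules at centrosomes, fell by 0.61 after 7 h of H2O2 and by 1.01 after 7 h of KCl, with footprint changes of -0.87 and -0.64. These values passed edgeR's test at an adjusted p under 0.05, in 2 libraries a group.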
